A study of Homo sapiens with 6 samples.

Results

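The nuclear genes that encode the subunits of the respiratory chain and of ATP synthase were followed complex by complex in A673 Ewing sarcoma cells with and without the propeptide of lysyl oxidase (LOX-PP). Members were the protein-coding genes with symbols of the NDUFA, NDUFB, NDUFC, NDUFS and NDUFV series (complex I), SDHA, SDHB, SDHC and SDHD (complex II), UQCR (complex III), COX4 to COX8 (complex IV) and ATP5 (complex V). They were matched through the RefSeq transcript that each array probe carries. A probe was found for 86 of 87 such genes, among 20503 named genes on the array, with 38 in complex I, 4 in complex II, 8 in complex III, 17 in complex IV and 19 in complex V. No probe of UQCRHL was matched, and 2 read-through genes and 3 noncoding genes with such symbols were left out. NDUFA4, now named COXFA4, and its relative NDUFA4L2 were kept with complex I by their older names, although NDUFA4 is nowadays counted with complex IV.

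Respiratory complexes sit in the inner mitochondrial membrane. Complex I takes electrons from NADH and complex II takes them from succinate, which it oxidises as succinate dehydrogenase of the citric acid cycle. Both hand them to ubiquinone, from which complex III passes them to cytochrome c and complex IV to oxygen. Complexes I, III and IV pump protons, complex II does not, and complex V uses the proton gradient to make ATP. Complex II is also the only one of them whose subunits are all encoded in the nucleus. Loss of succinate dehydrogenase function is known in paraganglioma, a tumour of neural crest origin.

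RNA came from 3 separate experiments, for which the paper names both A673/TR/empty and A673/TR/LOX-PP cells, with 3 samples of each. It was hybridised in 1 colour to Agilent SurePrint G3 arrays. All cells carried the tetracycline repressor (TR), and they had been infected with an inducible lentiviral vector, either empty or with the LOX-PP cDNA, and selected as zeocin-resistant stable clones. Which clone, or how many, went on the arrays is not given in the sources used here, so that the construct and the selected cells cannot be told apart. A673/TR/LOX-PP cells received doxycycline for 72 h. The labels repeat doxycycline at 1 µM for all 6 samples, and whether the control cells received it is not settled. Since RNA came from whole cultures, fewer cells with a transcript and less of it per cell cannot be told apart.

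Each array held 58717 gene spots, of which 56.9% to 74.8% were well above background and 0 were saturated. LOX-PP replicate 1 was on slide 2 and the other 5 arrays were on slide 1. All 5 Ewing sarcoma markers (NKX2-2, NR0B1, STEAP1, CCK and CAV1) were well above background on every array. Of these, CCK was lower with LOX-PP (log2 change -2.67 relative to all tested probes, adjusted p = 0.0100), which did not hold on leaving out control replicate 1 (0.0544) or 2 (0.0569). ALB, a liver marker, was not above background on any array, whereas the probes of PTPRC and EPCAM were above it on all 6. The only LOX probe was not higher where LOX-PP was induced, with log2 values of -0.09, 0.36 and 0.11 in A673/TR/empty and -0.12, -0.68 and -1.29 in A673/TR/LOX-PP (adjusted p = 0.217). Whether this probe reads the inserted cDNA is not known, and the groups below are those of the labels.

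All log2 values below are relative to the 75th percentile of the array. All changes are LOX-PP minus empty on the log2 scale, relative to the median change of all 32647 tested probes, which was 0.13. Each SE and p-value belongs to the difference before that median was subtracted, tested against 0. The p-values therefore do not test the relative change itself. A gene is represented by its brightest probe unless another is named, and a gene said to be at a value had that change. All but 2 of the 109 member probes were tested, for 84 genes, and COX7B2 and COX8C were left out as too dim.

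No member passed the threshold. An adjusted p under 0.05 (limma) was reached by 0 of the member probes tested, compared with 5.66% of all tested probes, and the lowest adjusted p was 0.0547. Without adjustment 9 member probes had a p under 0.05, compared with a background of 21.3%. Of these 9 in limma, 2 were higher (background 12.3%) and 7 were lower (background 9.00%). The higher ones include COX7A1, which was above background on 1 control and 3 LOX-PP arrays. It thus met the filter on dim probes through the group where it was high. Of the 7 lower probes 4 belonged to complex II, 2 to complex III and 1 to complex I. Complex II had 11 tested probes, and its 4 were the 3 probes of SDHD and a dimmer probe of SDHC. With 1 probe per gene, 1 gene of complex II was lower at this level, and 0 of complexes I and III. Among all 16601 tested genes 1993 were. Groups that did not overlap were found for 10 probes in the higher direction (background 16.1%) and for 10 in the lower direction (background 13.3%). Among the latter, 6 were probes of complex II, 3 of complex III and 1 of complex I. Those of complex II were the 3 probes of SDHD, the probe of SDHB and the brighter probes of SDHC. With 1 probe per gene, 3 genes of complex II and 0 of complexes I and III lay apart and lower, beside 3014 of all 16601 tested genes.

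The complexes lay at different medians. Complex II was lower with LOX-PP, with a median change of -0.51 over its 4 genes. In contrast, the medians were 0.09 for complex I, 0.22 for complex III, 0.31 for complex IV and 0.24 for complex V, beside -0.09 over all 16601 tested genes. Thus 24 of 38 genes of complex I, 6 of 8 of complex III, 12 of 15 of complex IV and 14 of 19 of complex V lay above 0, compared with 1 of 4 of complex II and with 43.5% of all tested genes. The median and count of complex IV include COX7A1, which met the filter on dim probes through the LOX-PP arrays. These medians are descriptions and were not tested. The small positive ones depend on the scaling between arrays, since under quantile normalization they became -0.01, -0.06, 0.02 and 0.05 for complexes I, III, IV and V, so that the signs for complexes I and III turned, whereas complex II remained at -0.35. Under cyclic loess normalization they were 0.07, 0.15, 0.23 and 0.25, with -0.43 for complex II.

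**Figure D1:**
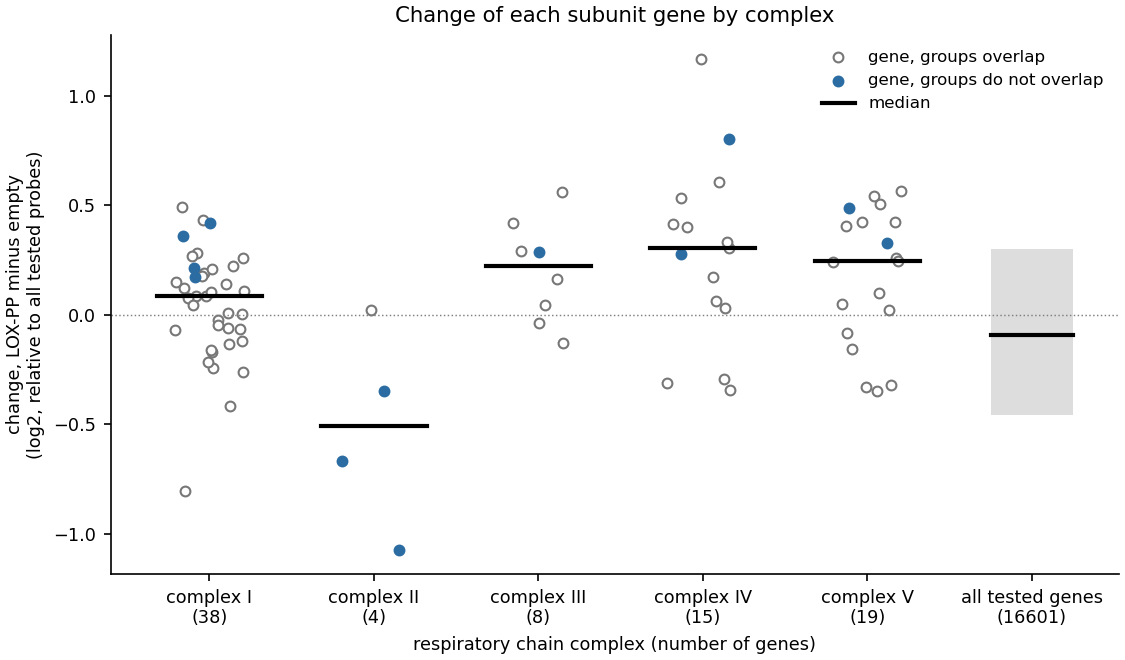
Change of each subunit gene (log2, LOX-PP minus empty, relative to all tested probes; brightest probe) by complex, with filled points where the 3 arrays of each group do not overlap, black lines at the medians and a grey bar for the middle quartiles of all tested genes. Complex II has 3 of its 4 genes below 0 with groups apart, while the medians of the other complexes lie between 0.09 and 0.31, and those of complexes I and III turn negative under quantile normalization.

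In complexes I, III, IV and V the LOX-PP arrays differed among themselves by more than the median change. For each array the median deviation of a complex's genes from their own means was taken, relative to all tested probes. Complex V stood at -0.23, -0.02 and -0.12 in A673/TR/empty and at 0.65, -0.33 and 0.29 in A673/TR/LOX-PP. Complex IV was at -0.19, -0.05 and -0.15 and then at 0.41, -0.28 and 0.20. For complex III the values were -0.13, 0.00 and -0.13 against 0.46, -0.35 and 0.29, and for complex I -0.14, 0.04 and -0.04 against 0.34, -0.25 and 0.14. In all 4 complexes LOX-PP replicate 1 was the highest array and replicate 2 the lowest, below every control array. Gene by gene, replicate 2 was the lowest LOX-PP array in 68 of the 84 genes (81.0%), compared with 24.3% of all tested genes and 56.1% of those in the brightest 10% of signal. The SD of a member gene had a median of 0.13 over the control arrays and 0.31 over the LOX-PP arrays, beside 0.13 and 0.26 for all tested genes in the brightest 10% and 0.21 and 0.36 for all tested genes.

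Complex II followed another course. Its value was 0.20, 0.33 and 0.21 in A673/TR/empty and -0.33, -0.30 and -0.06 in A673/TR/LOX-PP, so that all 3 LOX-PP arrays lay below all 3 control arrays. Replicate 1 of LOX-PP, where the other complexes were highest, was the lowest array of complex II. The 84 genes of cytosolic ribosomal proteins, which are bright as well, shared the order of the other complexes, with 0.95, -0.38 and 0.44 on the LOX-PP arrays, and their median change was 0.59 (0.08 under quantile normalization). For the 76 mitochondrial ribosomal proteins it was -0.22 (-0.06 under quantile and -0.11 under cyclic loess normalization), and for 38 proteasome subunits 0.04, a sign that turned under quantile and cyclic loess normalization. LOX-PP arrays below every control array were not particular to complex II. Mitochondrial ribosomal proteins stood at 0.06, 0.20 and 0.07 against 0.04, -0.21 and 0.01. With smaller values, all tested genes stood at 0.041, 0.11 and 9.5e-05 against -0.012, -0.082 and -0.0053.

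**Figure D2:**
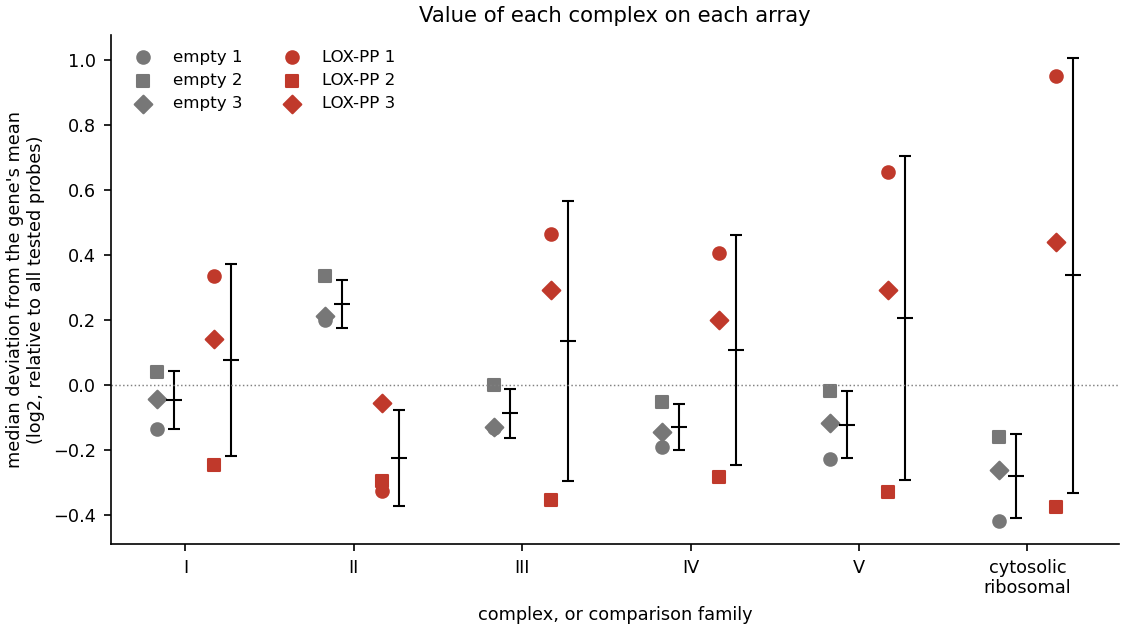
Value of each complex, and of the cytosolic ribosomal proteins, on each of the 6 arrays (median over the genes of the log2 deviation from the gene's mean, relative to all tested probes), with the mean and SD of each group of 3 beside the points. LOX-PP replicate 1 is highest and replicate 2 lowest in complexes I, III, IV and V, whereas all 3 LOX-PP arrays lie below the controls in complex II.

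The overall signal of an array moved with this pattern. The 75th percentile of the log2 signal was 11.5 and 11.7 on LOX-PP replicates 1 and 3, and 12.6 to 12.9 on LOX-PP replicate 2 and the control arrays. Of the 84 tested genes 76 had their brightest probe in the brightest 10% of tested probes. The part of the array signal in these values was not tested beyond the scaling alternatives. Without LOX-PP replicate 2 the medians of complexes I, III, IV and V were 0.28, 0.47, 0.51 and 0.53. In that fit 31 member probes had an unadjusted p under 0.05, 25 of them higher, with 0 past adjustment. The background was 20.4% in either direction and 11.8% higher. Without LOX-PP replicate 1, the array on its own slide, these medians were -0.03, 0.09, 0.10 and 0.02. Single genes shifted likewise. NDUFA1, NDUFA4, NDUFS5, UQCRH, UQCRQ, COX6A1, ATP5F1E, ATP5MC3 and ATP5ME, which were at 0.42 to 0.57, lay between 0.12 and 0.28 without replicate 1 and between 0.71 and 0.97 without replicate 2, and ATP5PD went from 0.49 to 0.79 without replicate 2. COX6A2, at 0.41, was at 0.74 without replicate 1, 0.08 without replicate 2 and 0.22 without control replicate 2. The median of complex II was -0.45 without replicate 2 and -0.42 without replicate 1.

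**Figure D3:**
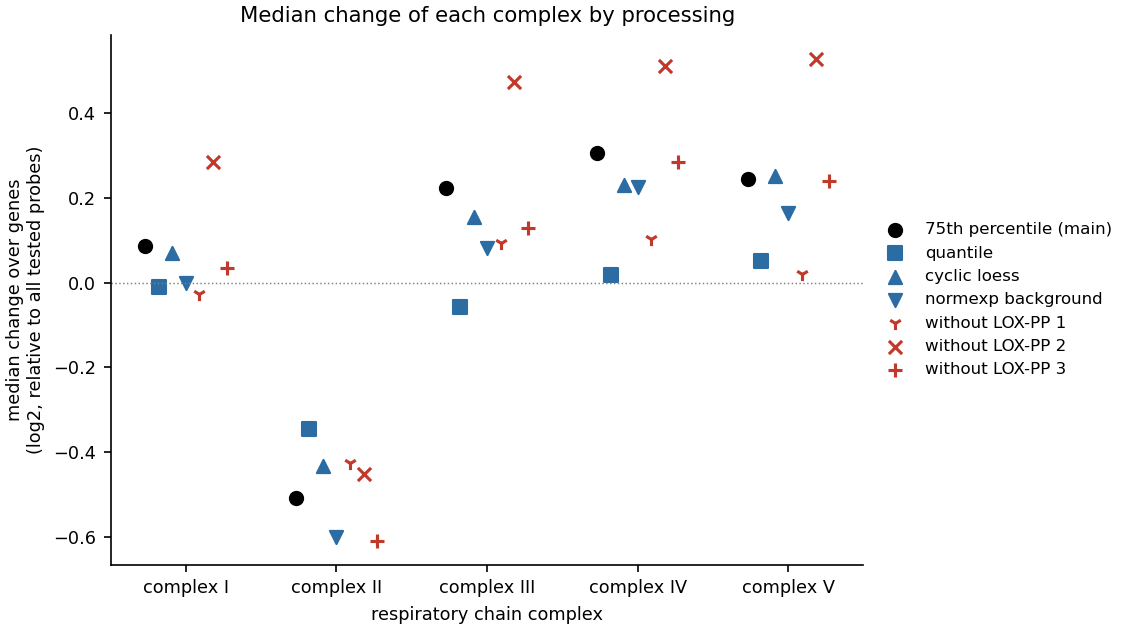
Median change of each complex (log2, relative to all tested probes) under the main scaling, 3 other ways of processing and without each LOX-PP array. Complex II stays between -0.61 and -0.35, while the other complexes range from -0.06 to 0.53 and complexes I and III cross 0.

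SDHD and SDHB, a membrane anchor and the iron-sulfur subunit, were the lowest genes of complex II. SDHD has 3 probes, and none of them overlapped between the groups. The brightest read 3.54, 3.77 and 3.48 in log2 in A673/TR/empty and 1.95, 2.90 and 3.11 in A673/TR/LOX-PP. The change was -1.07 ± 0.34 (SE, n = 3 arrays a group, adjusted p = 0.169), or 0.476 times the control level relative to all tested probes. Its second probe read 3.05, 3.55 and 3.17 against 1.37, 2.78 and 2.62 (change -1.13 ± 0.40, adjusted p = 0.218). The third read 2.67, 2.79 and 2.44 against 0.54, 2.01 and 1.78 (change -1.32 ± 0.40, adjusted p = 0.150). On all of them LOX-PP replicate 1 was far below the other LOX-PP arrays, and the remaining LOX-PP arrays also lay below every control array. The sign was kept in all 16 alternatives, with a range from -1.30 to -0.76 for the brightest probe and adjusted p values from 0.123 to 0.459. Scaling by the median of probes above background, the authors' values, the replicate block and the test of the methods left its change at -1.07. A sign kept in these settings is therefore no sign of robustness. The slide block gives the same change as leaving out LOX-PP replicate 1 (-0.76). The counts out of 16 given below for other probes include all these settings.

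SDHB, read by 1 probe, had log2 values of 4.93, 4.97 and 5.12 in A673/TR/empty and 4.02, 4.60 and 4.77 in A673/TR/LOX-PP. The groups did not overlap, and the change was -0.67 ± 0.26 (SE, n = 3, adjusted p = 0.284, from 0.219 to 0.545 over the alternatives). That is 0.629 times the control level relative to all tested probes. SDHC, the other membrane anchor, had 3 probes that disagreed. Its brightest read 4.49, 4.57 and 4.60 against 4.30, 4.28 and 4.42 (change -0.35 ± 0.19, adjusted p = 0.559). The next read 1.32, 1.48 and 1.42 against 0.07, 0.67 and 0.85 (change -1.0 ± 0.26, adjusted p = 0.113). Both had groups that did not overlap, whereas on the dimmest probe they overlapped, with a change of 0.04 that turned to the other sign in 4 of 16 alternatives.

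SDHA, the flavoprotein that binds succinate, did not share this course on its brightest probe. Its brightest probe read 4.60, 4.89 and 4.65 in A673/TR/empty and 5.19, 4.50 and 4.90 in A673/TR/LOX-PP, with a change of 0.02 ± 0.25 whose sign turned in 6 of 16 alternatives. Among these 6, the slide block and leaving out LOX-PP replicate 1 gave the same change (-0.18). Its other 3 probes gave -0.29, -0.44 and -0.30, each with its sign kept in all 16 alternatives. All 4 probes overlapped between the groups. Of the complex II assembly factors, SDHAF1, SDHAF2, SDHAF3 and SDHAF4, 0 passed the threshold, with 2 higher and 2 lower.

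**Figure D4:**
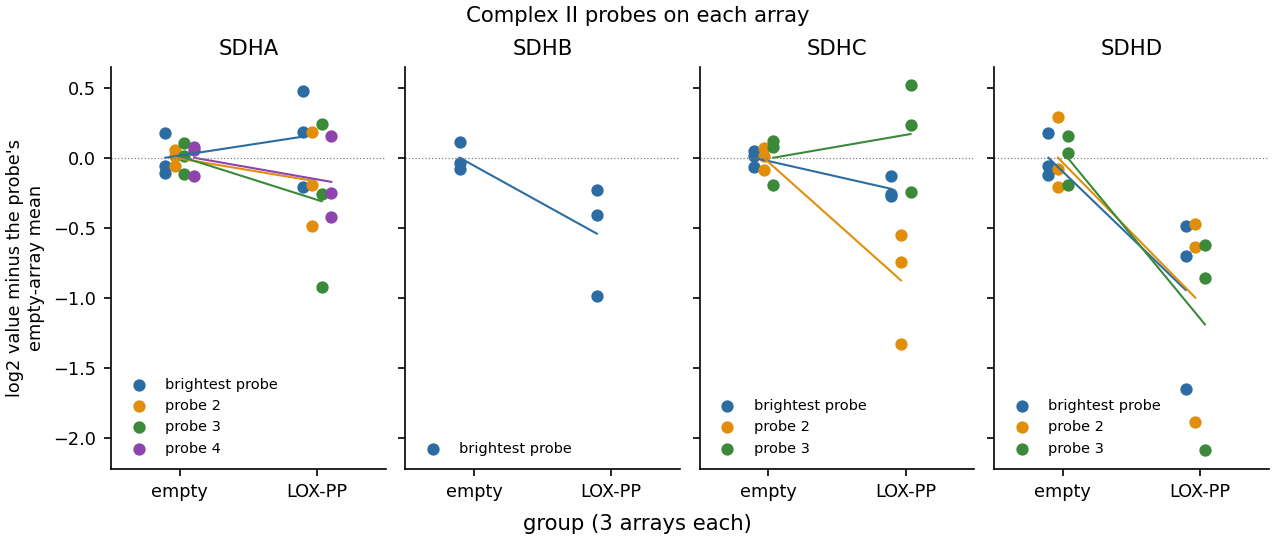
Each tested probe of the 4 complex II genes on the 3 arrays of each group (log2 value minus the probe's mean over the control arrays), with a line from the control mean to the LOX-PP mean. All 3 probes of SDHD and the single probe of SDHB lie lower on every LOX-PP array than on any control array, while the probes of SDHA and the dimmest of SDHC overlap.

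SDHB and SDHD, lower on all LOX-PP arrays, and SDHA, which was not, were compared in the 250 bases before their RefSeq start (GRCh38.p14). SDHC, whose brightest probe was also lower on all LOX-PP arrays, had no promoter listed and is missing from this comparison. The windows were read for 3 motifs known from promoters of respiratory genes. These were GCGCANGC for nuclear respiratory factor 1, CCGGAAG for factors of the ETS family such as GABP, and AAGATGGC for YY1, each on both strands, with N for any base and overlapping matches of the same motif counted separately. SDHA lies on the plus strand (chr5:218070-218319), SDHB on the minus strand (chr1:17054033-17054282) and SDHD on the plus strand (chr11:112086623-112086872). Capitals mark the matches in these windows, printed in the direction of transcription.
SDHA: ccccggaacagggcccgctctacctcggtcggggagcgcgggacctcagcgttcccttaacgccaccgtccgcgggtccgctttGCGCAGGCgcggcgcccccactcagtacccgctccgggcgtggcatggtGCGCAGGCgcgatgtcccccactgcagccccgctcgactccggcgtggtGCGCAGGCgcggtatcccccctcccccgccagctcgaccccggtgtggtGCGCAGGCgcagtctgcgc
SDHB: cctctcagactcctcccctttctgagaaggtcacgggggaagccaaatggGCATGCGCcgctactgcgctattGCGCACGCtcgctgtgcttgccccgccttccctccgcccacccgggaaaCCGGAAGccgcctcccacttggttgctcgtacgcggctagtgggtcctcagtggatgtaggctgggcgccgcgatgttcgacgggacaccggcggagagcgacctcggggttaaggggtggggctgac
SDHD: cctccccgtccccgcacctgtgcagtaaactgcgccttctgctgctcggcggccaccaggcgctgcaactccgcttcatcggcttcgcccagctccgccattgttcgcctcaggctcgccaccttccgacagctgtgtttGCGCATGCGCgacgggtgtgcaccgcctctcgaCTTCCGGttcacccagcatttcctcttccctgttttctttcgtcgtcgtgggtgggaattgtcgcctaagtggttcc
SDHA holds 4 matches to the nuclear respiratory factor motif, which begin 166, 117, 68 and 19 bases before the start, and 0 to the ETS motif. SDHB has 2 matches to the first motif, 200 and 177 bases before the start, and 1 ETS match at 128. SDHD has 2 overlapping matches at 110 and 108 bases and 1 ETS match at 77. None of the 3 holds the YY1 motif. For comparison, the windows of NDUFA1 (chrX:119871582-119871831, plus strand) and ATP5PD (chr17:75046970-75047219, minus strand) are shown, which were higher with groups that did not overlap.
NDUFA1: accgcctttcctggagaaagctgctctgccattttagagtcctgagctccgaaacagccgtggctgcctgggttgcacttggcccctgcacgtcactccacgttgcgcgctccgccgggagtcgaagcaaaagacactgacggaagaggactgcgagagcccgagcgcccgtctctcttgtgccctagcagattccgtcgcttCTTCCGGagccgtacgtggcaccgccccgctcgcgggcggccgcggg
ATP5PD: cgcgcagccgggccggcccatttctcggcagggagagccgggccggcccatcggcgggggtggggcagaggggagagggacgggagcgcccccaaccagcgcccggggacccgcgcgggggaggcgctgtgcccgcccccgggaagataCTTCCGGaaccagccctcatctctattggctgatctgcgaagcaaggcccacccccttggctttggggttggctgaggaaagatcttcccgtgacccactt
Each has 1 ETS match, 47 and 101 bases before the start, and 0 of the other motifs. Promoters were listed for 71 of the 86 members, 85 windows in all. The nuclear respiratory factor motif was found in 36.5% of them, the ETS motif in 22.4% and the YY1 motif in 2.35%, compared with 13.3%, 10.69% and 1.38% of the 22199 windows of protein-coding genes and 10.4%, 8.52% and 1.36% of all 35116 windows in the table. By complex, the first motif was in 26.8% of windows of complex I, 57.1% of complex III, 37.5% of complex IV and 38.9% of complex V. It was in all 3 windows listed for complex II, which lack SDHC. Of the factors themselves, picked for the motifs searched, NRF1 was at -0.25 and YY1 by -0.12 with overlapping groups. GABPA read 1.08, 1.73 and 1.20 against -0.01, 0.28 and 0.80 (change -1.10 ± 0.30, adjusted p = 0.121). It was lower on all LOX-PP arrays, as were 13.3% of all tested probes. GABPB1, which encodes the other subunit of GABP, was at -0.09 with overlapping groups (adjusted p = 0.956, and 0.19 under quantile normalization). Other regulators of mitochondrial DNA expression and biogenesis also lay apart, PPARGC1B (-0.89) and TFB1M (-0.76) lower and POLG (0.44) higher. A link between these factors, the motifs and the changes of complex II was not tested.

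Complex I had 38 tested genes. NDUFS5 and NDUFA4 were at its upper end, and NDUFA9 was among the lower ones. NDUFA9, an accessory subunit, was at -0.42 (adjusted p = 0.525). NDUFS5 read 6.06, 6.20 and 6.30 against 7.27, 6.19 and 6.95 (change 0.49 ± 0.31, adjusted p = 0.305) and NDUFA4 was at 0.43 (adjusted p = 0.309). Under quantile normalization NDUFS5 and NDUFA4 were at -0.02 and -0.03, so neither direction was kept.

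Groups of complex I genes did not overlap for NDUFA1, NDUFB1, NDUFB6 and NDUFB11, all of them higher and all accessory subunits. These are 10.5% of its genes, compared with 33.6% of all tested genes in either direction. NDUFA1, the largest of these, read 5.42, 5.58 and 5.55 against 6.58, 5.63 and 5.97 (change 0.42 ± 0.29, adjusted p = 0.322; 0.23 under quantile normalization). NDUFA4L2, a gene known for its response to hypoxia, was above background on 2 of 3 arrays of each group and was at -0.25, with a sign that turned without LOX-PP replicate 1 (0.21) and under normexp background correction (0.05).

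The assembly of complex I gave the one call among its other genes. Of 19 assembly factors tested, 15 were lower, with a median of -0.30 (-0.16 under quantile normalization), and 1 (5.26%, against the background of 5.66%) passed the threshold. NDUFAF6 read 1.98, 2.48 and 2.04 in A673/TR/empty and 0.62, 1.07 and 1.09 in A673/TR/LOX-PP (change -1.37 ± 0.25, adjusted p = 0.0385). That call was kept under both other normalizations (adjusted p = 0.0369 and 0.0360) but lost on leaving out any 1 array (0.0529 to 0.172), with the slide as a block (0.0529), with a replicate block (0.0810) and with no filter on dim probes (0.136). NDUFAF6 lies on chromosome 8, where the median change of all 559 tested genes was -0.42.

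Complex III had 8 tested genes between -0.13 and 0.56. UQCRQ and UQCRH, small accessory subunits, were the highest. UQCRQ read 6.10, 6.24 and 6.41 in A673/TR/empty and 7.46, 6.33 and 7.03 in A673/TR/LOX-PP, a change of 0.56 ± 0.32 (adjusted p = 0.272). UQCRH was at 0.42 (adjusted p = 0.334), which became -0.05 under quantile normalization, and UQCRQ was then at 0.02. LOX-PP replicate 2 was within the control range for both. The lowest were UQCRB (-0.13) and the core subunit UQCRC2 (-0.04, but 0.03 under quantile and 0.01 under cyclic loess normalization). UQCRC1, the other core subunit, was at 0.29 with groups that did not overlap.

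UQCR10, another small subunit, had the lowest adjusted p of all members, but its 3 probes did not agree. The brightest read 5.75, 5.89 and 5.95 against 6.30, 5.71 and 6.10, with a change of 0.05. The next read 4.45, 4.41 and 4.60 against 3.98, 4.13 and 4.28 (change -0.48). The dimmest read 2.36, 2.36 and 2.47 against 0.48, 1.49 and 1.27 (change -1.44 ± 0.30, adjusted p = 0.0547). Both dimmer probes had groups that did not overlap. The dimmest passed the threshold under normexp background correction (adjusted p = 0.0356), among probes above background on all 6 arrays (0.0338) and with the slide as a block, which is the same as without LOX-PP replicate 1 (-1.18, adjusted p = 0.0399).

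Disagreement between probes of 1 gene was common. Of 18 genes with several tested probes, 6 had changes of both signs, and in UQCRB, UQCR10 and SDHC the probes lay more than 1 apart. The second probe of UQCRB read -0.09, 0.08 and -0.93 against -1.85, -1.10 and -3.01 (change -1.80 ± 0.52, adjusted p = 0.122), while its brightest probe overlapped. NDUFC2 gave -0.17 and -0.90. In 14 of the 18 genes the dimmest probe had the lower change, and in 11 under quantile or cyclic loess normalization. Median changes of all tested probes also varied with signal, being -0.25 in the second brightest 10% of probes and -0.05 in the brightest. Only SDHD had all its probes lower with groups that did not overlap, and NDUFB6 alone had all its probes higher in this way (0.21 and 0.20).

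**Figure D5:**
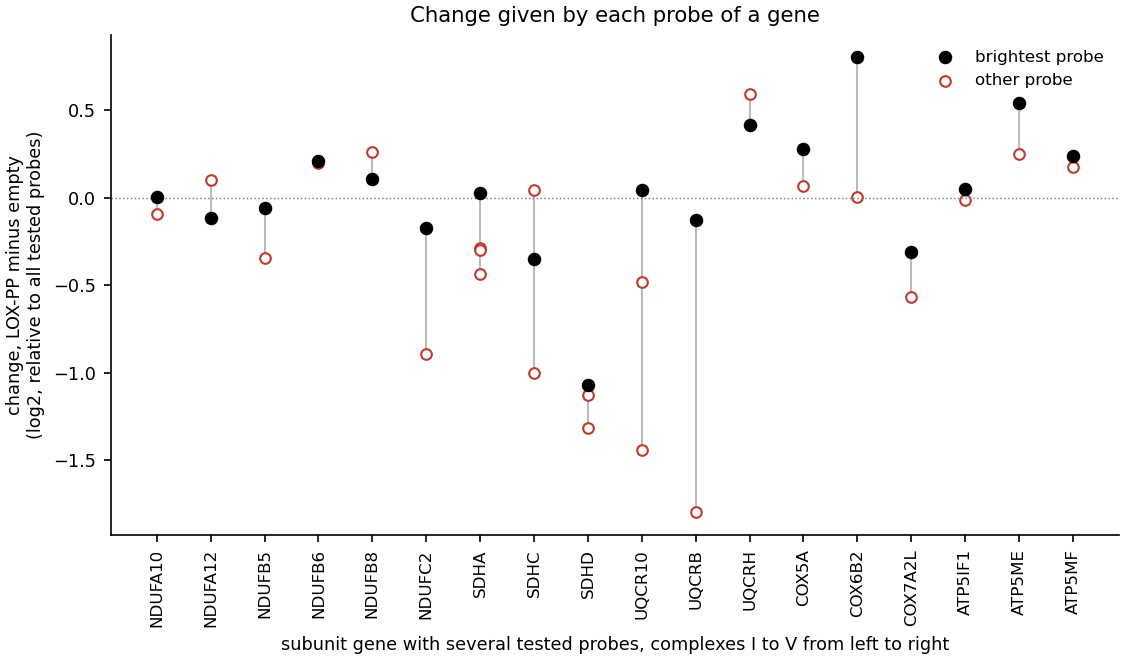
Change (log2, LOX-PP minus empty, relative to all tested probes) given by each probe of the 18 genes with several tested probes, the brightest probe filled. The 3 probes of SDHD lie together near -1.1 to -1.3, whereas those of UQCRB, UQCR10 and SDHC spread over more than 1.

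Complex IV had 15 tested genes. COX7A1, the muscle form of subunit VIIa, read -5.45, -5.65 and -4.80 in A673/TR/empty and -4.85, -3.51 and -3.67 in A673/TR/LOX-PP. Only 1 of the 3 control arrays measured it above background, so that it met the filter on dim probes through the LOX-PP arrays, and the groups overlapped. Its change is therefore given as a description only, with 1.17 ± 0.42 (adjusted p = 0.137), or 1.55 without LOX-PP replicate 1 (adjusted p = 0.0348). COX6B2, the testis form of subunit VIb, read 1.11, 1.13 and 1.46 against 2.00, 1.62 and 2.87 (change 0.80 ± 0.35, adjusted p = 0.188), with groups that did not overlap. Without LOX-PP replicate 3 it was at 0.45, and its other probe was at 0.00. COX6C (-0.34) and COX7A2L (-0.31), which takes part in supercomplexes of complexes III and IV, were the lowest.

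Tissue forms of complex IV subunits were compared with their common forms. COX4I1 was at 0.06 and the hypoxia-linked COX4I2 by -0.29. COX6A1 was at 0.53 and the muscle form COX6A2 at 0.41, and COX6B1 at 0.31. COX7A2 was at 0.40, COX7B by 0.17 and COX8A by 0.33, and under quantile normalization COX4I1, COX7B and COX8A were at -0.12, -0.01 and -0.15. None passed the threshold (adjusted p from 0.271 to 0.837) and all of these overlapped between the groups. COX7B2 was above background on 0 of 6 arrays, and COX8C on 0 control and 2 LOX-PP arrays, so no change is given for them.

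Complex V had 19 tested genes between -0.35 and 0.57. ATP5F1E and ATP5ME, the epsilon and e subunits, were the highest. ATP5F1E read 5.92, 6.09 and 6.16 in A673/TR/empty and 7.25, 6.10 and 6.90 in A673/TR/LOX-PP (change 0.57 ± 0.32, adjusted p = 0.275, and 0.08 under quantile normalization). ATP5ME was at 0.54 (adjusted p = 0.304), with 0.25 from its other probe. The lowest were the gamma subunit ATP5F1C (-0.35, adjusted p = 0.678) and ATP5MC1 (-0.33, adjusted p = 0.641). ATP5PD, a subunit of the peripheral stalk, read 5.39, 5.66 and 5.53 against 6.39, 5.69 and 6.35, the largest change of complex V with groups that did not overlap (0.49 ± 0.26, adjusted p = 0.239; 0.28 under quantile normalization).

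Within complex V the catalytic F1 part had the lower median, again untested. The 5 F1 subunits had a median of -0.08, with ATP5F1A, ATP5F1B and ATP5F1C below 0, and the other 14 genes had 0.29, values that were -0.10 and 0.06 under quantile normalization. For the c-ring, whose identical protein is made from ATP5MC1, ATP5MC2 and ATP5MC3, the genes were at -0.33, 0.26 and 0.42. The last pair became -0.19 and -0.12 under quantile normalization. ATP5IF1, the inhibitor of ATP hydrolysis, was at 0.05 (-0.23 under quantile and -0.01 under cyclic loess normalization).

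Among other genes of the pathway NDUFAF6 alone passed the threshold under the scaling used here. It was reached by 0 of 6 assembly factors of complex III, 0 of 24 of complex IV and 0 of 3 of complex V, with medians of -0.32, -0.13 and -0.19, of which the last pair became 0.04 and 0.09 under quantile normalization. Of 20 carriers and other subunits, such as cytochrome c and the ubiquinone synthesis genes, 0 passed (median -0.24, but -0.05 under quantile and 0.01 under cyclic loess normalization). Of these 20 genes, 7 were higher and 13 lower. ETFB, a subunit of the electron transfer flavoprotein, read 4.11, 4.06 and 4.05 against 5.41, 4.61 and 5.09. It was higher on all LOX-PP arrays (change 0.84 ± 0.26, adjusted p = 0.0850) and passed under quantile normalization (0.97, adjusted p = 0.0404). ETFA, the other subunit, was at -0.24 with overlapping groups. Groups also did not overlap for COQ8A (0.62) and, in the lower direction, for COQ7 (-0.80), ETFDH (-0.61) and PDSS2 (-0.53). Among all tested probes 16.1% lay apart and higher and 13.3% apart and lower. None passed of 17 regulators of mitochondrial DNA expression and biogenesis (median -0.12, and 0.11 under quantile normalization). PPARGC1A, a coactivator of mitochondrial biogenesis, was above background on 0 of 6 arrays. No probe with a RefSeq name was matched for the 13 subunits encoded in mitochondrial DNA, which are not analysed here.

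Members on chromosome 8 were NDUFB9 (0.26), UQCRB and COX6C, beside the chromosome's median of -0.42. SDHD lies on chromosome 11, where 1004 tested genes had a median of -0.27, and SDHB and SDHC on chromosome 1, with a median of -0.10 over 1708 genes.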

How the data were processed

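RNA was measured on 1-colour Agilent arrays. Spot intensities, as deposited, had been corrected for background by Feature Extraction (version 10.7 in the submitters' processing notes). The authors also gave a table of processed log2 values, which equal the values used here, centred on each probe, within 0.02. Spots of a probe were averaged in log2 without outliers, after removal of control spots, and each array was scaled by its 75th percentile. Of 50599 probes, 32647 that exceeded background well on 3 or more of the 6 arrays entered the fit in limma (version 3.58.1, R 4.3.3) without a block, with Benjamini-Hochberg adjustment over all of them at 0.05; 61 lacked an array that was an outlier. Steps were tested on simulated arrays. The SE is that of limma, and the number of arrays limits the precision. RefSeq (GRCh38.p14) gave names and promoters; the array design used hg19. Members, gene lists and the rule for named genes (extremes of each complex, complex II, tissue forms, largest changes without overlap) were chosen with earlier results of these data known. Other scalings, background correction, filters, blocks, the t-test of the methods and leaving out each array were the alternatives. The values of 1 member are not reported here.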

Additional observations from a re-analysis of the deposited data

How the results depend on the processing

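Complex II kept a negative median in every alternative run, from -0.69 with no filter on dim probes (where the median of all probes rose to 0.30) to -0.35 under quantile normalization, and complex IV moved to 0.019 there. Scaling by the median of probes above background, the authors' values and the replicate block left complex II at -0.51, so they add nothing to this. The count of member probes past the threshold was 1 under normexp background correction, 1 among probes above background on all 6 arrays, 2 with the slide as a block and 0 to 2 on leaving out 1 array (2 without LOX-PP replicate 1, of which COX7A1 met the filter through the LOX-PP arrays). Quantile and cyclic loess normalization, the median of probes above background, the authors' values, no filter and the t-test of the methods gave 0, with 6 to 10 member probes under an unadjusted p of 0.05. Of all probes 1849 passed, compared with 516 with no filter, 566 by the t-test of the methods and 407 to 2062 on leaving out 1 array. That t-test gave adjusted p values of 0.0708 for CCK and 0.0920 for NDUFAF6. The cause was not tested.

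Directions turned for small changes. Under quantile normalization NDUFA4 was at -0.03, NDUFS5 -0.021, UQCRC2 0.035, UQCRH -0.054, COX4I1 -0.12, COX7B -0.014, COX8A -0.15, ATP5IF1 -0.23, ATP5MC2 -0.19 and ATP5MC3 -0.12. Cyclic loess turned UQCRC2 (0.009023) and ATP5IF1 (-0.014). Normexp turned NDUFA4L2 (0.051), SDHA (-0.040), COX4I1 (-0.070) and ATP5IF1 (-0.073), and no filter turned SDHA (-0.15), COX4I1 (-0.11), COX7B (-0.002373) and ATP5IF1 (-0.13). The stricter filter turned UQCRC2 (0.020). With the slide as a block NDUFA4L2 was at 0.21, SDHA -0.18, COX4I1 -0.024, COX4I2 0.011 and ATP5IF1 -0.095. On leaving out 1 array the changes ranged from -0.66 to 0.21 for NDUFA4L2, -0.18 to 0.28 for SDHA, -0.30 to 0.11 for UQCRB, -0.18 to 0.19 for UQCRC2, -0.024 to 0.28 for COX4I1, -0.57 to 0.011 for COX4I2 and -0.095 to 0.29 for ATP5IF1.

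Whether replicate numbers pair the samples is not settled. The paper names both cell lines for its 3 experiments, without saying whether same-numbered samples came from the same experiment. With each probe centred on its group, the correlations of same-numbered arrays were 0.27, -0.39 and 0.23. Those of differently numbered arrays ranged from -0.46 to 0.39. With 3 arrays a group, centred on their own mean, such values cannot decide it. With a replicate block 0 member probes passed the threshold, as without it, and 860 of all probes did, without NDUFAF6 (adjusted p = 0.0810). The precision is limited by the number of arrays, and for COX7A1 and NDUFA4L2 by a signal that was not above background on every array.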
